A study of Homo sapiens with 8 samples.

Results

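The report covers 40 genes of glycolysis and of the response to hypoxia, out of 27475 human genes in a table of RNA-seq values, in a pair of human bladder cancer cell lines transfected with siPAI-1 or with scrambled siRNA. The 40 genes were taken by symbol from a fixed list that runs from glucose uptake through the glycolytic enzymes and lactate export to the HIF subunits, their prolyl hydroxylases and well known hypoxia targets. All 40 had an entry, and all were above 0 TPM in each of the 8 libraries. UM-UC-3 and RT112 are established lines, each of them 1 model of the disease, and cells of each were transfected with 100 pmol of siRNA, either the 3 pooled siRNAs labelled siPAI-1 or 3 pooled scrambled ones (Scr), and collected after 72 h. Each of the 4 groups (UM-UC-3 Scr, UM-UC-3 siPAI-1, RT112 Scr and RT112 siPAI-1) has 2 libraries of bulk mRNA. The culture media named for the lines are RPMI 1640 and DMEM, without saying which line grew in which, so line and medium cannot be told apart. The study describes the knockdown as done in independent replicate experiments, more in number than the 2 libraries of a group. The labels do not tie the libraries to these experiments or say whether they came from separate cultures, so p-values measure the spread between these libraries, which may be technical.

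Glycolysis converts glucose to pyruvate, and lactate dehydrogenase turns pyruvate into lactate, which monocarboxylate transporters carry out of the cell. When oxygen is short, the alpha subunits of the hypoxia-inducible factor (HIF) are no longer hydroxylated and degraded, pair with ARNT and raise the transcription of many glycolytic genes and of targets such as carbonic anhydrases and mitophagy receptors. HIF alpha subunits are controlled largely at the level of protein stability, which mRNA does not measure, and many tumour cells run glycolysis at a high rate also when oxygen is present.

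Estimated depths were 29.2 to 34.1 M reads (M for mega) per library. As markers of the lines, 8 epithelial and luminal genes summed to 215 to 233 TPM in UM-UC-3 and 7812 to 8339 TPM in RT112, and 6 mesenchymal genes to 2960.4 to 3256 TPM and 57.3 to 97.4 TPM. VIM made up most of the mesenchymal sum in UM-UC-3, at a mean of 2997 TPM in Scr against 6.93 TPM in RT112, whereas SNAI2 and CDH2 of the same 6 were 4.29-fold and 1.95-fold higher in RT112 Scr (adjusted p = 0.000359 and 0.00621, limma). Leukocyte markers summed to 273 to 279.6 TPM in UM-UC-3 and 14.4 to 19.8 TPM in RT112, in each line with CD68 as the 1 gene of 5 at a mean of 1 TPM or more. The endothelial and the fibroblast markers summed to at most 2.35 and 25.1 TPM.

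The 40 genes together made up 2.78% to 3.00% of the TPM of a UM-UC-3 library and 2.11% to 2.22% of an RT112 library. TPM, a transcript abundance scaled to gene length and to the library's total, lets levels of different genes be set side by side. GAPDH had the highest level of the 40 genes in all 8 libraries, and 29 genes were above 10 TPM in every library. In Scr libraries, GAPDH was at rank 3 of all genes by mean TPM in UM-UC-3 and at rank 8 in RT112, and LDHA at rank 7 and rank 26. The plot of TPM by library shows levels from under 0.1 TPM (SLC2A3 in an RT112 Scr library) to 8929 TPM (GAPDH in a UM-UC-3 Scr library).

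**Figure D1:**
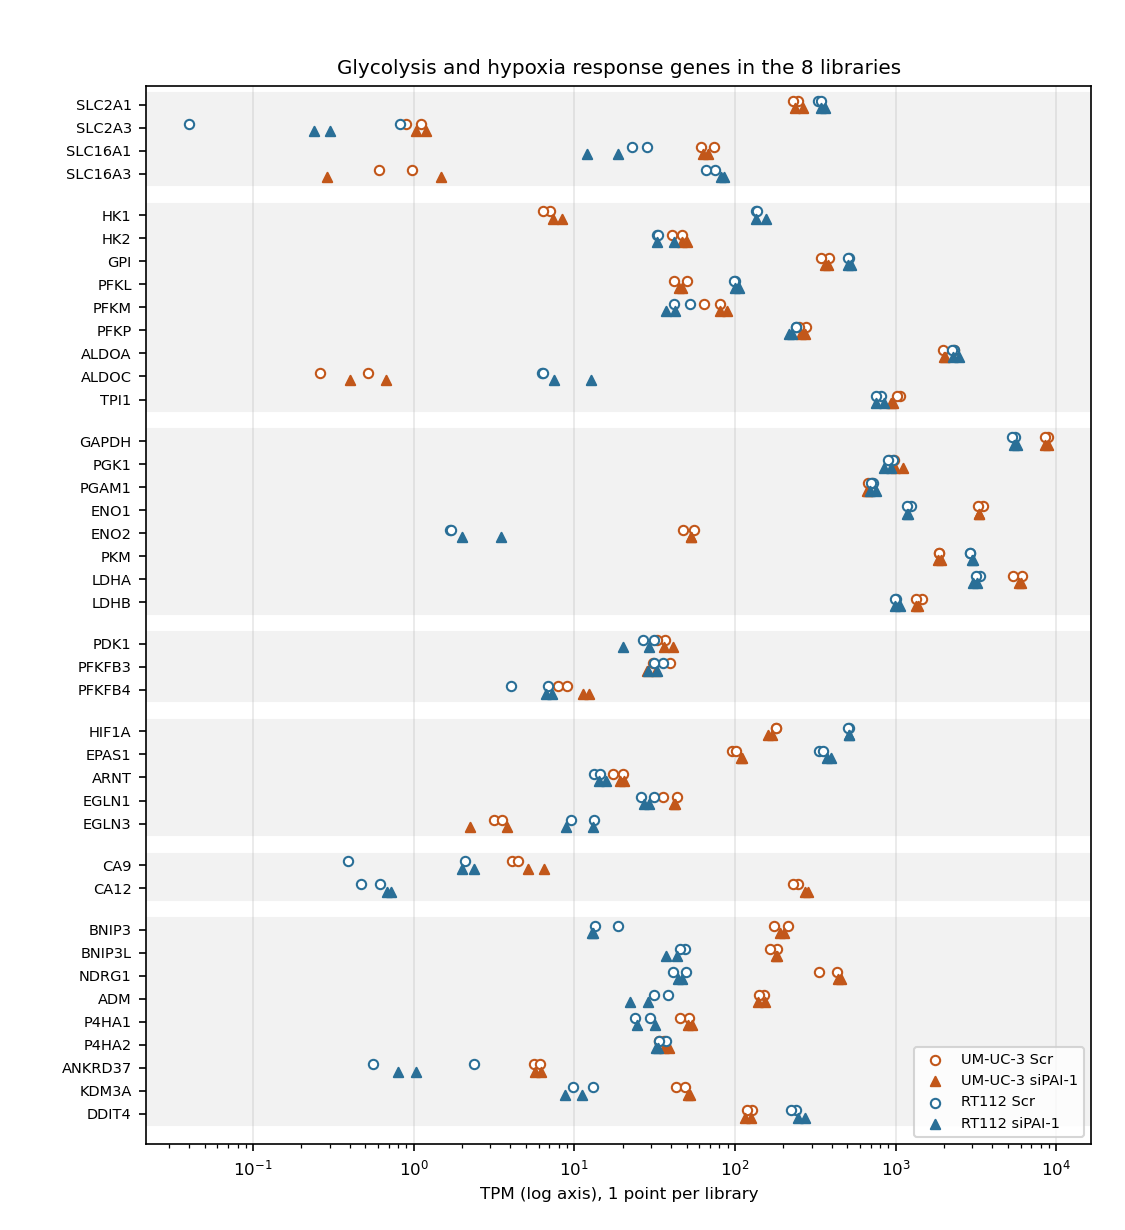
TPM of the 40 genes in each of the 8 libraries on a log axis, with genes grouped by role in shaded blocks, open circles for Scr, filled triangles for siPAI-1, and 1 colour per cell line. The points of a gene lie closer together within a line than between the lines for genes such as CA12, SLC16A3, HK1 and ENO2, while those of PGK1, PGAM1, PFKFB3 and P4HA2 lie on top of each other.

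RT112 was compared with UM-UC-3 in the libraries that received Scr, and 28 of the 40 genes differed at an adjusted p under 0.05 (limma on log2(TPM + 0.1), adjusted over the 19201 genes tested). Of these, 11 genes (27.5%) were higher in RT112, where 25.3% of all genes tested were, and 17 (42.5%) were higher in UM-UC-3, where 26.3% of all genes tested were. For the genes that averaged 1 TPM or more, the background was 31.7% and 32.9%. The groups did not overlap for 11 genes higher in RT112 and for 24 genes higher in UM-UC-3 (background 34.6% and 37.7%). The median log2 fold change of the 40 genes, RT112 minus UM-UC-3, was -0.42, and that of all genes tested -0.06. Leaving out any 1 of the 4 libraries kept the direction of all 28 genes and the call of 12 (SLC16A3, HK1, ENO1, ENO2, PKM, HIF1A, EPAS1, CA12, BNIP3, BNIP3L, NDRG1 and DDIT4). The count of genes higher in RT112 was 6 without RT112 Scr replicate 1 and 7 without replicate 2, and that of genes higher in UM-UC-3 was 9 without RT112 Scr replicate 2 and 10 without UM-UC-3 Scr replicate 1. Bulk RNA cannot tell apart fewer cells with a transcript and less of it per cell. Fold changes below are those of TPM + 0.1 and understate the change of genes with very low levels.

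**Figure D2:**
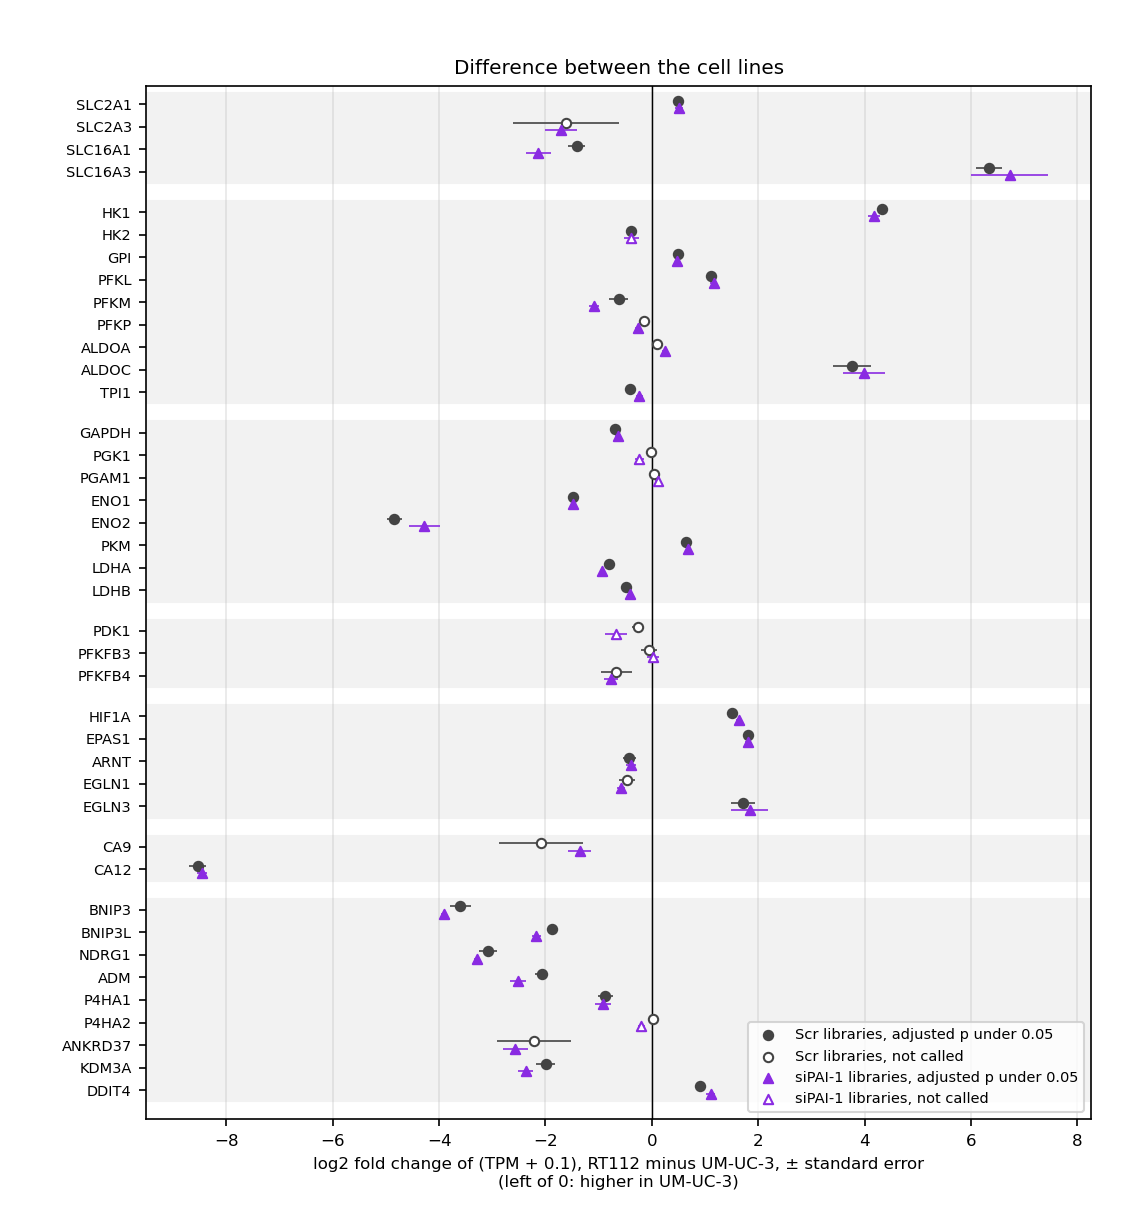
Log2 fold change of TPM + 0.1, RT112 minus UM-UC-3, with its standard error, in Scr libraries (circles) and in siPAI-1 libraries (triangles), filled where the adjusted p was under 0.05. HIF1A, EPAS1, HK1 and SLC16A3 lie right of 0. The hypoxia targets except DDIT4 lie left of 0, apart from P4HA2 in Scr, which lies just right of 0. CA12 lies farthest from 0 at -8.54 in Scr.

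Among the transporters, the lactate carriers separated the lines. SLC16A3 (MCT4), the carrier typical of cells that export lactate, was at 0.97 and 0.61 TPM in UM-UC-3 Scr, 0.29 and 1.48 TPM in UM-UC-3 siPAI-1, 75.5 and 65.8 TPM in RT112 Scr and 81.6 and 84.9 TPM in RT112 siPAI-1. The RT112 libraries ran from 65.8 to 84.9 TPM and the UM-UC-3 libraries from 0.29 to 1.48 TPM, and the expression level was 80.97-fold higher in RT112 Scr (log2 fold change 6.34 ± 0.25 SE, adjusted p = 0.000459). SLC16A1 (MCT1), the more widely expressed carrier, went the other way, with 61.8 and 74.6 TPM in UM-UC-3 Scr and 28.3 and 22.8 TPM in RT112 Scr (2.66-fold higher in UM-UC-3, adjusted p = 0.00357). The share of SLC16A3 in the summed TPM of the 2 carriers was 0.454% to 2.14% in UM-UC-3 and 72.7% to 87.3% in RT112. SLC2A1 (GLUT1), the main glucose importer of the list, was at 247 and 229 TPM in UM-UC-3 Scr and 330.4 and 343 TPM in RT112 Scr, 1.41-fold higher in RT112 (adjusted p = 0.00418). SLC2A3 (GLUT3) was at or under 1.19 TPM in all libraries and was not called (adjusted p = 0.263), with about 3.8 estimated reads in RT112 Scr replicate 2.

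Upper glycolysis primes and splits the sugar. Of its 9 enzymes, 4 were higher in RT112 (background 25.3% of all genes tested) and 3 higher in UM-UC-3 (background 26.3%). The largest difference was in hexokinase, which traps glucose in the cell. HK1, the widely expressed form, was at 7.02 and 6.34 TPM in UM-UC-3 Scr, 7.38 and 8.43 TPM in UM-UC-3 siPAI-1, 134 and 137 TPM in RT112 Scr and 155 and 135 TPM in RT112 siPAI-1. The lines were far apart and the siRNA groups close, with 20.03-fold more HK1 in RT112 Scr (log2 fold change 4.32 ± 0.08 SE, adjusted p = 0.000247). HK2, the inducible form, was at 46.7 and 40.5 TPM in UM-UC-3 Scr and 32.9 and 33.1 TPM in RT112 Scr, 1.32-fold higher in UM-UC-3 (adjusted p = 0.0294). HK1 thus made up 13.1% to 14.4% of the summed TPM of HK1 and HK2 in UM-UC-3 and 78.9% to 80.6% in RT112.

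Phosphofructokinase commits the sugar to glycolysis, and PFKP, its platelet form, was the most abundant form in both lines. PFKP was at 278 and 250.5 TPM in UM-UC-3 Scr and 240.4 and 239 TPM in RT112 Scr and was not called (adjusted p = 0.1603). PFKL, the liver form, was 2.17-fold higher in RT112 Scr (adjusted p = 0.002405), and PFKM, the muscle form, 1.54-fold higher in UM-UC-3 Scr (adjusted p = 0.0486). The PFKM call was lost with FPKM in place of TPM, with median ratio rescaling, with a pseudocount of 0.01 TPM and without trend (adjusted p between 0.0594 and 0.1003). The share of PFKL in the summed TPM of the 3 forms was 11.2% to 12.8% in UM-UC-3 and 25.4% to 29.4% in RT112.

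Of the remaining enzymes of this stretch, GPI, which converts glucose phosphate to fructose phosphate, was 1.4-fold higher in RT112 Scr (adjusted p = 0.00797). TPI1, the triose phosphate isomerase, was 1.34-fold higher in UM-UC-3 Scr (adjusted p = 0.00599). ALDOA, the main aldolase in both lines, was at 2299.9 and 1976 TPM in UM-UC-3 Scr and 2313 and 2238 TPM in RT112 Scr, and the groups overlapped (adjusted p = 0.412). ALDOC, the brain form of aldolase, was 13.6-fold higher in RT112 Scr (adjusted p = 0.00242), but at 0.26 and 0.52 TPM in UM-UC-3 against 6.31 and 6.35 TPM in RT112 it made up at most 0.511% of the 2 aldolases. The UM-UC-3 values of ALDOC rest on about 9.0 to 25.8 estimated reads.

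In lower glycolysis and at lactate dehydrogenase, 5 of 8 genes were higher in UM-UC-3 (background 26.3%) and 1 higher in RT112 (background 25.3%). The other 2 were not called. GAPDH, which oxidises the triose phosphate, was at 8929 and 8578 TPM in UM-UC-3 Scr, 8549 and 8861 TPM in UM-UC-3 siPAI-1, 5517 and 5326 TPM in RT112 Scr and 5684 and 5449.6 TPM in RT112 siPAI-1. The lowest UM-UC-3 library was at 8549 TPM and the highest RT112 library at 5684 TPM, a difference of 1.61-fold in Scr (log2 fold change -0.69 ± 0.04 SE, adjusted p = 0.000916). ENO1, the main enolase, was at 3480.3 and 3273 TPM in UM-UC-3 Scr and 1247 and 1181 TPM in RT112 Scr (2.78-fold, adjusted p = 0.000399). ENO2, the neuronal enolase, was at 55.7 and 47.4 TPM in UM-UC-3 Scr, 52.99 and 53.5 TPM in UM-UC-3 siPAI-1, 1.68 and 1.71 TPM in RT112 Scr and 3.49 and 2.01 TPM in RT112 siPAI-1. It was 28.7-fold higher in UM-UC-3 Scr (adjusted p = 0.000306), and made up at most 1.59% of the summed TPM of both enolases. In RT112 it rests on 94.2 to 224.7 estimated reads.

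LDHA, the form of lactate dehydrogenase that favours lactate formation, was at 6118 and 5357 TPM in UM-UC-3 Scr and 3362 and 3159 TPM in RT112 Scr (1.76-fold higher in UM-UC-3, adjusted p = 0.00276). LDHB, the heart form, was 1.39-fold higher in UM-UC-3 Scr (adjusted p = 0.004199). Both forms were higher in UM-UC-3, and LDHA made up 80.0% to 81.5% of their sum in UM-UC-3 and 75.2% to 76.9% in RT112. PKM, the pyruvate kinase, was the exception, with 1856 and 1858 TPM in UM-UC-3 Scr and 2904 and 2903 TPM in RT112 Scr (1.56-fold higher in RT112, adjusted p = 0.0006799). PGK1 and PGAM1, which act between GAPDH and enolase, were at 974 and 908 TPM and 713 and 671 TPM in UM-UC-3 Scr and at 963 and 895 TPM and 728 and 701 TPM in RT112 Scr. Both overlapped between the lines (log2 fold changes -0.02 ± 0.06 SE and 0.05 ± 0.05 SE, adjusted p = 0.816 and 0.485). The table has no rows for processed pseudogenes of these enzymes, so how reads from such copies were assigned is uncertain, and the related genes PGAM4, PGK2 and GAPDHS did not exceed 0.63 TPM.

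None of the 3 regulators of flux was called in Scr. PDK1, which inhibits pyruvate dehydrogenase, was at 36.8 and 32.9 TPM in UM-UC-3 against 31.3 and 26.8 TPM in RT112 (adjusted p = 0.139). PFKFB3 and PFKFB4, which set the level of the activator of phosphofructokinase, had log2 fold changes of -0.06 ± 0.15 SE and -0.67 ± 0.30 SE (adjusted p = 0.757 and 0.141).

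The oxygen-regulated HIF subunits were higher in RT112. HIF1A was at 181 and 179 TPM in UM-UC-3 Scr, 171 and 159.7 TPM in UM-UC-3 siPAI-1, 512 and 509 TPM in RT112 Scr and 512 and 516 TPM in RT112 siPAI-1. The RT112 libraries lay close together, and HIF1A was 2.84-fold higher in RT112 Scr (log2 fold change 1.5 ± 0.04 SE, adjusted p = 0.000292). EPAS1, the gene of the second HIF alpha subunit, was at 95.7 and 102 TPM in UM-UC-3 Scr, 108 and 110.5 TPM in UM-UC-3 siPAI-1, 335 and 352 TPM in RT112 Scr and 372 and 393 TPM in RT112 siPAI-1. It was 3.48-fold higher in RT112 Scr (log2 fold change 1.8 ± 0.06 SE, adjusted p = 0.000331), and its share in the summed TPM of HIF1A and EPAS1 was 34.6% to 40.9% in UM-UC-3 and 39.6% to 43.3% in RT112. ARNT, the shared partner subunit, was at 19.99 and 17.3 TPM in UM-UC-3 Scr and 13.2 and 14.5 TPM in RT112 Scr, 1.34-fold higher in UM-UC-3 (adjusted p = 0.0491, and between 0.0530 and 0.0868 with a pseudocount of 0.01 TPM, a replicate block or no trend).

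The prolyl hydroxylases mark the HIF alpha subunits for degradation. EGLN1 (PHD2), their main form, was at 43.4 and 35.9 TPM in UM-UC-3 Scr and 31.4 and 25.96 TPM in RT112 Scr, without a call (adjusted p = 0.0665, and from 0.0164 to 0.0443, with a call, with FPKM, a minimum mean of 1 TPM, 1 fit over all 8 libraries or a replicate block). EGLN3 (PHD3), itself a HIF target, was at 3.16 and 3.55 TPM in UM-UC-3 Scr and 13.2 and 9.53 TPM in RT112 Scr, 3.28-fold higher in RT112 (adjusted p = 0.00517). It made up 5.07% to 9.00% of the 2 hydroxylases in UM-UC-3 and 24.6% to 30.8% in RT112.

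Of the 11 hypoxia targets, 7 were higher in UM-UC-3 (background 26.3%) and 1 was higher in RT112 (background 25.3%). CA12, a membrane carbonic anhydrase that acts on the pH outside the cell, had the largest difference of the 40 genes, with 246 and 231 TPM in UM-UC-3 Scr, 272 and 287 TPM in UM-UC-3 siPAI-1, 0.62 and 0.47 TPM in RT112 Scr and 0.72 and 0.68 TPM in RT112 siPAI-1. The UM-UC-3 libraries were at 231 TPM or more and the RT112 libraries at 0.72 TPM or less, where 56.4 to 100.8 reads were estimated. The difference in Scr was 372-fold (log2 fold change -8.54 ± 0.16 SE, adjusted p = 0.000245), and 438-fold as a ratio of mean TPM. It was at rank 100 of the 19201 genes tested by size of the log2 fold change. CA9, the other carbonic anhydrase of the list, was at 4.12 and 4.46 TPM in UM-UC-3 Scr and 2.1 and 0.39 TPM in RT112 Scr and was not called (adjusted p = 0.0991), or 0.0415 and 0.0265, with a call, with a minimum mean of 1 TPM and with 1 fit over all 8 libraries, and with a wide spread between the RT112 libraries.

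BNIP3 and BNIP3L, receptors that mark mitochondria for autophagy, were both higher in UM-UC-3. BNIP3 was at 215 and 175 TPM in UM-UC-3 Scr, 192 and 201 TPM in UM-UC-3 siPAI-1, 18.7 and 13.5 TPM in RT112 Scr and 12.96 and 13.01 TPM in RT112 siPAI-1. It was 12.1-fold higher in UM-UC-3 Scr (log2 fold change -3.6 ± 0.20 SE, adjusted p = 0.000776), and BNIP3L 3.69-fold (adjusted p = 0.000487). BNIP3 made up 51.3% to 53.9% of the summed TPM of both in UM-UC-3 and 22.9% to 27.6% in RT112. NDRG1, a stress-induced gene, was at 432 and 334 TPM in UM-UC-3 Scr, 437 and 456 TPM in UM-UC-3 siPAI-1, 49.6 and 40.9 TPM in RT112 Scr and 46.9 and 44.2 TPM in RT112 siPAI-1. It was 8.41-fold higher in UM-UC-3 Scr (adjusted p = 0.000759).

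ADM, the gene of the vasodilator peptide adrenomedullin, was at 151 and 142 TPM in UM-UC-3 Scr and 38.3 and 31.5 TPM in RT112 Scr (4.21-fold, adjusted p = 0.000781). KDM3A, a histone demethylase, was 3.98-fold higher in UM-UC-3 Scr (adjusted p = 0.00199). P4HA1, a catalytic subunit of the collagen prolyl hydroxylase, was 1.84-fold higher in UM-UC-3 Scr (adjusted p = 0.00937), whereas its relative P4HA2 was at 33.6 and 36.04 TPM in UM-UC-3 against 37.3 and 33.6 TPM in RT112 (adjusted p = 0.821). ANKRD37, an ankyrin repeat gene, was at 5.61 and 6.07 TPM in UM-UC-3 Scr and 0.56 and 2.38 TPM in RT112 Scr and was just outside the threshold (adjusted p = 0.0625). DDIT4 (REDD1), an inhibitor of mTOR signalling that also answers to other stresses, was the target higher in RT112, with 128 and 118 TPM in UM-UC-3 Scr and 238 and 225 TPM in RT112 Scr (1.88-fold, adjusted p = 0.00122).

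Summed by role, the 17 glycolytic enzymes and lactate dehydrogenases made up 2.58% to 2.78% of the TPM in UM-UC-3 libraries and 1.92% to 2.02% in RT112 libraries. The 11 hypoxia targets summed to 1307 to 1561 TPM in UM-UC-3 and 429.9 to 477 TPM in RT112. The 5 HIF subunits and prolyl hydroxylases summed to 335 to 345 TPM in UM-UC-3 and 905 to 961 TPM in RT112. The bar plot of these sums shows no overlap between the lines in any of the 3 sets. In the first 2 sets UM-UC-3 was higher and in the third RT112. The 9 upper glycolysis enzymes alone summed to 3758 to 4202 TPM in UM-UC-3 and 4067 to 4416 TPM in RT112, and overlapped. The 8 genes of lower glycolysis and lactate dehydrogenase summed to 22027 to 23583 TPM and 15158 to 15806 TPM. HIF1A and EPAS1 made up most of the third sum, while ARNT and EGLN1 had lower values in RT112.

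**Figure D3:**
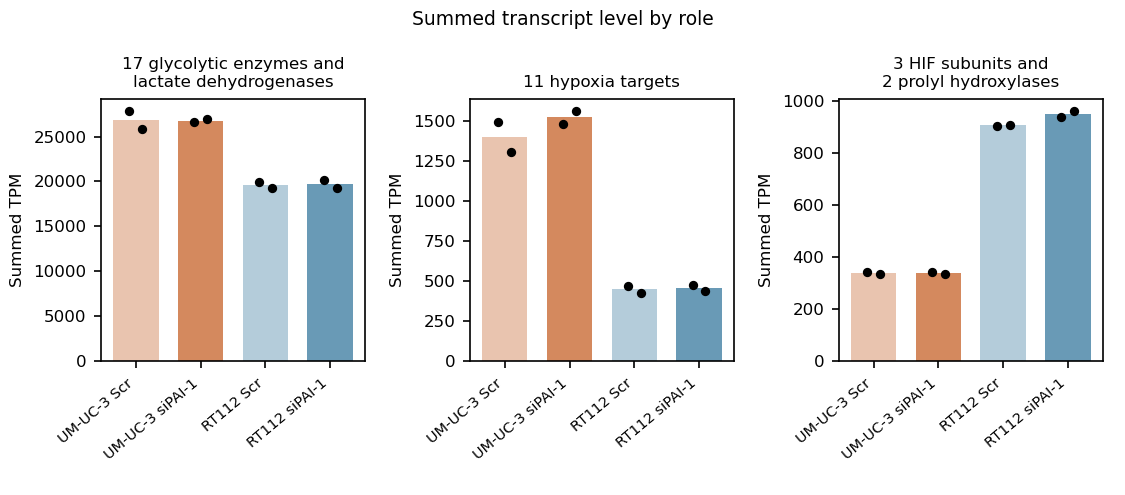
Summed TPM of 3 sets of genes by group, with bars for the mean of 2 libraries and points for the libraries. The sums of the enzymes and of the hypoxia targets are higher in UM-UC-3 and that of the HIF subunits and prolyl hydroxylases is higher in RT112, with Scr and siPAI-1 bars of a line at similar heights.

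**Figure D4:**
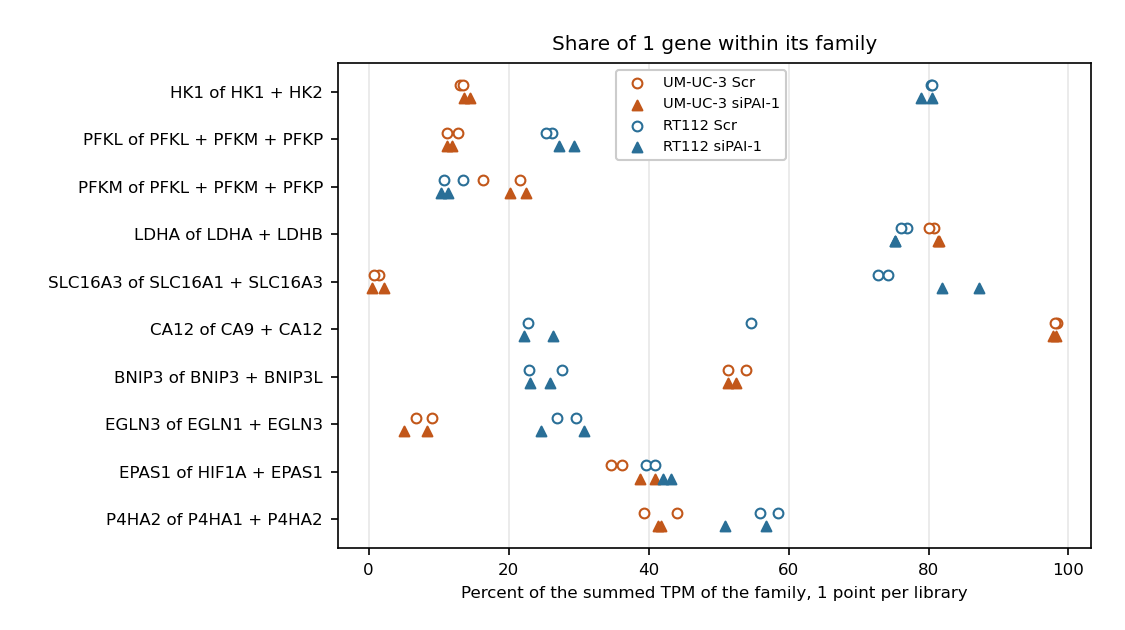
Percent of the summed TPM of a gene family that 1 of its members took, with 1 point per library, open circles for Scr, filled triangles for siPAI-1 and 1 colour per line. HK1 and SLC16A3 lie at opposite ends in the lines, CA12 lies at 97.8% or more in UM-UC-3 and between 22.2% and 54.7% in RT112, PFKL, BNIP3 and EGLN3 are apart by less, and the shares of EPAS1 overlap.

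The HIF complex binds DNA at a short core, ACGTG or GCGTG. The bases before 1 annotated start of each gene were therefore searched for both cores on both strands. RefSeq windows of 250 bases before the start (GRCh38.p14) were at hand for 36 of the 40 genes, without SLC2A3, SLC16A1, BNIP3L and NDRG1. ACGTG was found in 14 of 36 windows (38.9%) and in 18.7% of the windows of all 27305 promoters of the same length, and GCGTG in 14 of 36 (38.9%) and in 31.9%. The windows of the 40 genes are richer in G and C (medians of 68.4% to 69.6% by direction of the difference between the lines) than all windows (58.0%), and both cores hold more G and C than A and T. ACGTG was in 5 of 13 windows of genes higher in UM-UC-3 in Scr and in siPAI-1 (BNIP3, ENO2, GAPDH, LDHA and P4HA1). It was in 3 of 11 windows of genes higher in RT112 in both (ALDOC, DDIT4 and GPI) and in 6 of 12 windows of the other genes. GCGTG was in 5 of 13, 5 of 11 and 4 of 12 windows in the same order. Each gene has 1 start here, which lies inside the annotated gene for some, such as GPI, GAPDH and SLC16A3. It need not be the start used in these cells, and a match is a description, not a bound site. Shown are windows with ACGTG from both directions, read 5′ to 3′ on the strand of the gene and ending at the base before the start, with the cores in capitals. CACGT and CACGC are ACGTG and GCGTG on the other strand, and CACGTG holds ACGTG on both strands. The first 3 genes were higher in UM-UC-3 and the last 2 in RT112. BNIP3 is at chr10:131981924-131982173, - strand, LDHA at chr11:18394313-18394562, + strand, ENO2 at chr12:6914330-6914579, + strand, ALDOC at chr17:28576896-28577145, - strand, and DDIT4 at chr10:72273674-72273923, + strand.
BNIP3: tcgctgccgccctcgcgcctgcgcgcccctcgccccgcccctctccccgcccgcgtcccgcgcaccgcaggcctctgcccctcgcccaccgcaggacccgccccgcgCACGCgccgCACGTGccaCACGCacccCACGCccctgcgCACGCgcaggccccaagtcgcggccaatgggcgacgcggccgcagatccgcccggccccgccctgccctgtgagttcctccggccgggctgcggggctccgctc
LDHA: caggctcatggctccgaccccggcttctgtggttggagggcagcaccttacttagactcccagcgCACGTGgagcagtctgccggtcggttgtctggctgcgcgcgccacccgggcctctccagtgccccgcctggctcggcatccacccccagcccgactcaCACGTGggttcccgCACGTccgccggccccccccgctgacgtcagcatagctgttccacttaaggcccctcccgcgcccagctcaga
ENO2: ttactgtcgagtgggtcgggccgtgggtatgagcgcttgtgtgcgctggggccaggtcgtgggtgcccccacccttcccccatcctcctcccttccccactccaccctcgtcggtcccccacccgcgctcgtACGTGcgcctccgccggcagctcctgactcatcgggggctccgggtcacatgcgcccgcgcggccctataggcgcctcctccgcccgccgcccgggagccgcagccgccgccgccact
ALDOC: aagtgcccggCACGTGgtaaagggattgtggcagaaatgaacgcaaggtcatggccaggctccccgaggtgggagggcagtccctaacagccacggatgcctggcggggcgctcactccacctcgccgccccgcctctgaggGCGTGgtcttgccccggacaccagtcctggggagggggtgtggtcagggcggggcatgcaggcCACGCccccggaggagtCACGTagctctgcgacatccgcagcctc
DDIT4: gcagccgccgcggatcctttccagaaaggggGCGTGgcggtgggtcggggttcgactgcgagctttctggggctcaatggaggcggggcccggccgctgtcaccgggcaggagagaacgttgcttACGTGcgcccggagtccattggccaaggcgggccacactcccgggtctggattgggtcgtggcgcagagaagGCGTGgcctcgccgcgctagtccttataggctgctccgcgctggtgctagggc
BNIP3 had 2 matches of ACGTG and 4 of GCGTG, LDHA 5 of ACGTG, ENO2 1 of ACGTG, ALDOC 3 and 2, and DDIT4 1 and 2. No match to either core was in the windows of HK1 and SLC16A3, which had the largest differences toward RT112. The SLC16A3 window (chr17:82228185-82228434, + strand) lies inside the annotated gene, which begins at 82217934. The bases before that beginning were not searched.

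The difference between the lines was measured again in the siPAI-1 libraries, which share no library with the Scr comparison. There, 12 of the 40 genes (30%) were higher in RT112 (background 26.2%) and 22 (55%) higher in UM-UC-3 (background 26.1%), with a median log2 fold change of -0.40. The groups did not overlap for 13 and 26 genes (background 36.6% and 37.1%). Of all 12795 genes that averaged 1 TPM or more, 4164 were called higher in RT112 and 4213 higher in UM-UC-3. All 11 of the 40 genes called higher in RT112 in Scr were called again, as were 16 of the 17 called higher in UM-UC-3. None was called in opposite directions, and 38 of 40 had the same sign. The same count over all genes was not made, so whether the 40 genes repeat more often than others was not tested. HK2 was the gene not called again (46.5 and 49.96 TPM in UM-UC-3 against 41.6 and 32.6 TPM in RT112, adjusted p = 0.0898). The genes called in addition were ANKRD37 (5.94-fold), CA9 (2.56-fold), SLC2A3 (3.27-fold), PFKFB4 (1.71-fold), EGLN1 (1.497-fold) and PFKP (1.201-fold), all higher in UM-UC-3, and ALDOA, 1.19-fold higher in RT112. The calls of CA9 and SLC2A3 were lost with 1 fit over all 8 libraries (adjusted p = 0.112 and 0.116), and those of PFKP and ALDOA without trend (adjusted p = 0.1201 and 0.138). ANKRD37 in RT112 rests on 15.9 to 65.3 estimated reads and CA9 on 11.6 to 75.1. CA12 was 349-fold higher in UM-UC-3 siPAI-1 (adjusted p = 0.000221), BNIP3 15.02-fold (adjusted p = 0.000221) and HK1 18.1-fold higher in RT112 siPAI-1 (adjusted p = 0.000323). The direction of all 34 genes was kept when any 1 of the 4 libraries was left out, but 12 of 34 were called in every such fit. Without UM-UC-3 siPAI-1 replicate 1, 7 genes were called higher in RT112, and without either UM-UC-3 siPAI-1 library 6 genes were called higher in UM-UC-3.

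A second list held 84 other genes of glycolysis and of the hypoxia response. Of 37 other glycolysis genes tested in Scr, 14 were higher in RT112 and 6 higher in UM-UC-3, beside 25.3% and 26.3% of all genes tested. Of 38 other hypoxia genes tested, 11 were higher in RT112 and 19 higher in UM-UC-3. Their median log2 fold changes were 0.33 and -0.69, and 1 gene is in both sets, with 74 tested in all. In siPAI-1 libraries the counts were 15 and 6 of 39 glycolysis genes and 10 and 18 of 38 hypoxia genes, beside 26.2% and 26.1% of all genes tested.

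Among the hypoxia genes higher in UM-UC-3 Scr were enzymes that modify collagen, namely PLOD2 (209 ± 5.11 TPM in UM-UC-3 and 13.7 ± 2.595 TPM in RT112, SD, n = 2 each, 15.2-fold), PLOD1 (3.49-fold) and LOXL2 (12.1-fold). ANGPTL4, an inhibitor of lipoprotein lipase, was at 44.3 and 33.8 TPM in UM-UC-3 Scr and 0.09 and 0.11 TPM in RT112 Scr (194-fold, a size that depends on the added 0.1 TPM, adjusted p = 0.000331). STC2, a secreted glycoprotein, HMOX1, the heme oxygenase, MXI1, an antagonist of MYC, and CITED2, a restraint on HIF activity, were 13.2-fold, 11.3-fold, 6.24-fold and 5.06-fold higher in UM-UC-3. Higher in RT112 Scr were IGFBP3, which binds insulin-like growth factors (311 ± 14.8 TPM and 72.1 ± 5.73 TPM in UM-UC-3, SD, n = 2 each, 4.32-fold), the transcriptional repressor BHLHE40 (3.14-fold), the small Maf protein MAFF (3.07-fold) and the transferrin receptor TFRC (1.44-fold). Genes of neighbouring glucose metabolism higher in RT112 Scr were PDHA1, a subunit of pyruvate dehydrogenase (1.895-fold), TIGAR, which lowers glycolytic flux (1.77-fold), and the glucose transporter SLC2A10 (24.1-fold). SLC2A10 was at 0.1 and 0.18 TPM in UM-UC-3 Scr and 6.3 and 4.98 TPM in RT112 Scr. The size of its fold change also depends on the added 0.1 TPM. PDHB, the partner of PDHA1, went the other way and was at 94.9 and 105 TPM in UM-UC-3 Scr against 28.1 and 28.8 TPM in RT112 Scr (3.496-fold higher in UM-UC-3, adjusted p = 0.000487). Without PDHB, the adjusted p of the 15 genes in Scr ran from 0.000274 to 0.00178, and all 15 were called in the same direction in siPAI-1.

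The study used siPAI-1 to ask which genes respond to the knockdown, and no gene of the 40 was called in either line. In UM-UC-3, 0 of 18528 genes were called (0%), and in RT112 0 of 18437 (0%). An unadjusted p under 0.05 was reached in UM-UC-3 by 482 genes of the whole table with higher values (2.6%) and 632 with lower values (3.41%). In RT112 these were 617 genes (3.35%) and 446 genes (2.42%). Among the 40 genes the smallest adjusted p was 0.791 (UM-UC-3) and 0.838 (RT112), and the median log2 fold changes were 0.05 and 0.03 (all genes tested -0.01 and 0.01). In UM-UC-3, groups did not overlap for 8 genes higher with siPAI-1 (20%, background 15.1%) and 3 lower (7.5%, background 17.1%). In RT112 these were 9 genes higher (22.5%, background 18%) and 6 lower (15%, background 14.7%).

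**Figure D5:**
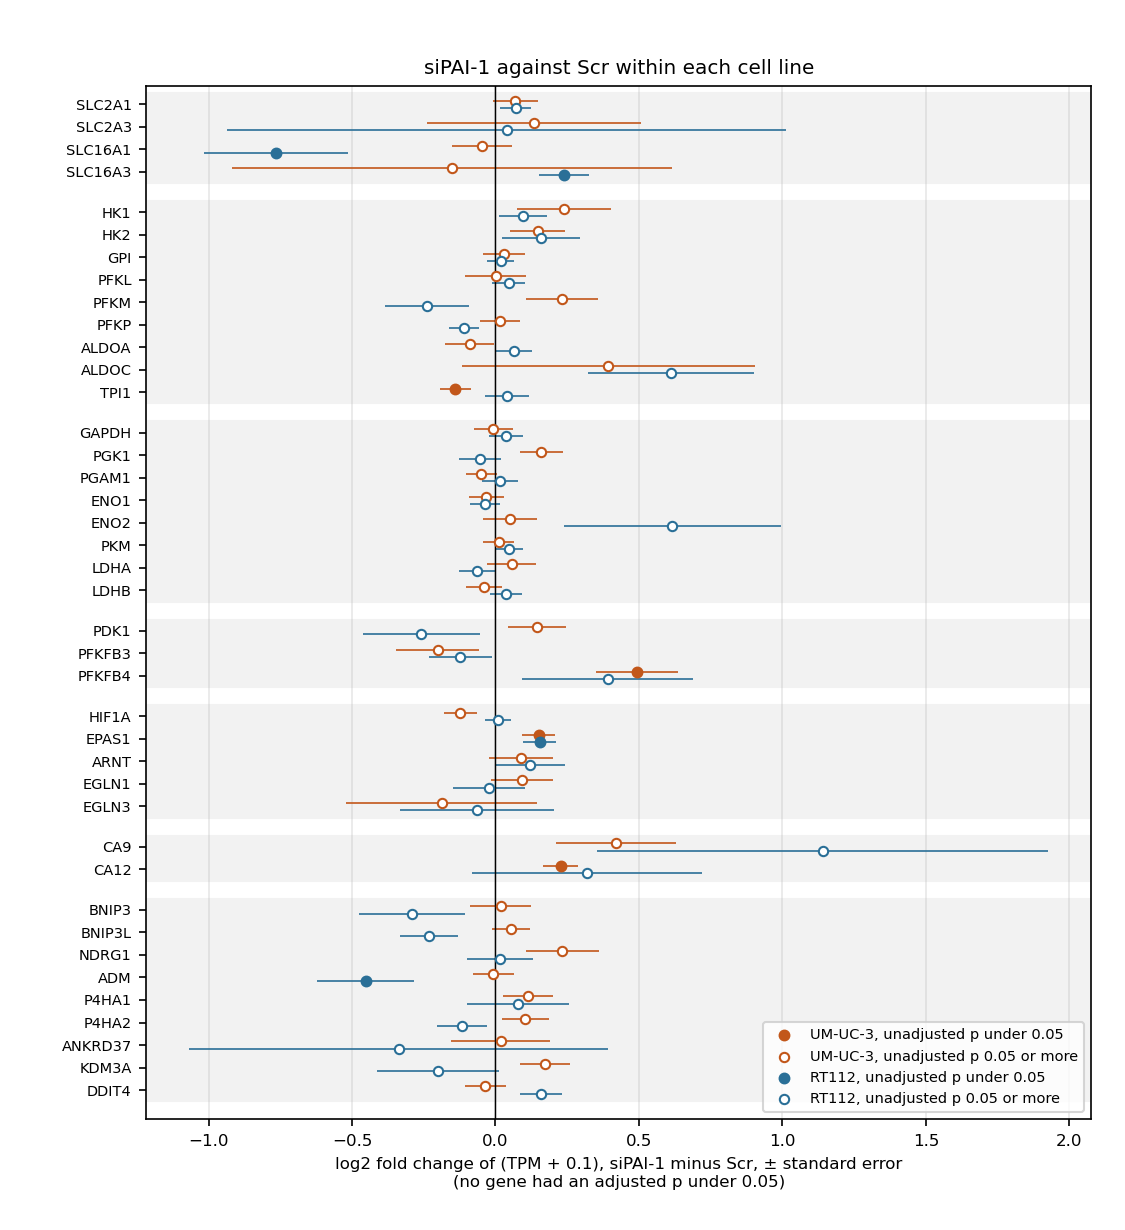
Log2 fold change of TPM + 0.1, siPAI-1 minus Scr, with its standard error, for the 40 genes in UM-UC-3 and RT112, filled where the unadjusted p was under 0.05. Most points lie near 0, and the widest error bars belong to genes with few reads in that line, such as SLC16A3 in UM-UC-3 and SLC2A3, CA9 and ANKRD37 in RT112.

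In UM-UC-3, 4 genes had an unadjusted p under 0.05, 3 of them with higher and 1 with lower values. CA12 was 246 and 231 TPM (Scr) and 272 and 287 TPM (siPAI-1) (log2 fold change 0.23 ± 0.06 SE, unadjusted p = 0.0126, adjusted p = 0.791, limma). PFKFB4 was 7.86 and 8.98 TPM and 12.4 and 11.3 TPM (log2 fold change 0.49 ± 0.14 SE, unadjusted p = 0.0174, adjusted p = 0.791). The values of both genes were above the Scr values in both siPAI-1 libraries. TPI1 had a log2 fold change of -0.14 ± 0.05 SE (unadjusted p = 0.0453) and EPAS1 one of 0.15 ± 0.06 SE (unadjusted p = 0.0492), with an adjusted p of 0.823 for both.

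In RT112, the 4 genes with an unadjusted p under 0.05 included both lactate carriers, and 2 had higher and 2 lower values. SLC16A1 was 28.3 and 22.8 TPM (Scr) and 11.9 and 18.7 TPM (siPAI-1) (log2 fold change -0.76 ± 0.25 SE, unadjusted p = 0.0315). SLC16A3 was 75.5 and 65.8 TPM and 81.6 and 84.9 TPM (log2 fold change 0.24 ± 0.09 SE, unadjusted p = 0.0451). The siPAI-1 libraries thus had lower values of the one and higher values of the other than both Scr libraries, and the adjusted p was 0.838 for each. ADM was 38.3 and 31.5 TPM and 22.3 and 28.8 TPM (log2 fold change -0.45 ± 0.17 SE, unadjusted p = 0.0475, adjusted p = 0.838). EPAS1 had a log2 fold change of 0.15 ± 0.06 SE (unadjusted p = 0.0477, adjusted p = 0.838).

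EPAS1 was the gene with an unadjusted p under 0.05 in both lines, with values above both Scr libraries of the same line in all 4 siPAI-1 libraries. A model over both lines with the line as covariate, added after these values were seen, gave a log2 fold change of 0.15 and an adjusted p of 0.895. The difference of the siPAI-1 effect between the lines was tested as an interaction over all 8 libraries, and 0 of the 40 genes had an adjusted or an unadjusted p under 0.05 (limma, smallest unadjusted p 0.0566 for SLC16A1, with a difference of -0.72 ± 0.31 SE on the log2 scale). Over all 20274 genes, 0 (0%) were called in the interaction, and 811 (4%) had an unadjusted p under 0.05 toward RT112 and 559 (2.76%) toward UM-UC-3. With siPAI-1, HIF1A was at -0.12 ± 0.06 SE in UM-UC-3 and 0.01 ± 0.05 SE in RT112 on the log2 scale. GAPDH was at -0.01 ± 0.07 SE and 0.04 ± 0.06 SE. Neither was called, nor was any gene of the whole table in either line. The lack of a call thus does not show that they were unchanged.

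Of the second list, 0 of 72 genes tested in UM-UC-3 and 0 of 75 in RT112 were called with siPAI-1. In UM-UC-3, 9 genes had an unadjusted p under 0.05. ANGPTL4 was 44.3 and 33.8 TPM (Scr) and 62.04 and 56.2 TPM (siPAI-1) (log2 fold change 0.61 ± 0.14 SE, unadjusted p = 0.00833, adjusted p = 0.791, limma). SLC16A7 (MCT2), a further monocarboxylate carrier, was 4.68 and 2.94 TPM and 6.85 and 7.2 TPM (log2 fold change 0.9 ± 0.27 SE, unadjusted p = 0.0209, adjusted p = 0.791). The others were IGFBP3, TFRC, TMEM45A, HIF3A, PDP1 and ERO1A (listed as ERO1L) with values above Scr and ADPGK with values below, and HIF3A stayed at or under 1.06 TPM. In RT112 they were RORA, under 1 TPM in all 4 libraries, and PDHB (log2 fold change 0.21 ± 0.08 SE, unadjusted p = 0.0482, adjusted p = 0.838).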

How the data were processed

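Bulk RNA-seq of UM-UC-3 and RT112 cells treated with siPAI-1 or Scr was analysed, with 2 libraries in each of 4 groups assigned from the labels. What the authors deposited are tables of TPM and of FPKM for each gene, with 2 decimals. According to the study's methods, reads were trimmed with cutadapt, aligned with STAR to hg38, counted with featureCounts and compared with DESeq2, whereas the submitters' processing notes list STAR 2.5.0 and RSEM 1.2.25, and the column headers of the deposited tables end as RSEM's gene-level output does, so the values were taken as RSEM's. DESeq2 needs counts, which were not used here. The deposited TPM are scaled to an equal total, so a difference is a difference in share. The 92 ERCC entries, at 0 throughout, were left out.

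Groups were compared with limma 3.58.1 in R 4.3.3 (lmFit and eBayes with trend, a two-sided test) on log2(TPM + 0.1). A gene was tested where any library of the fit was above 0 TPM, with Benjamini-Hochberg adjustment over all of them and a call at an adjusted p under 0.05. The interaction was fitted over all 8 libraries. A library's depth was estimated as the number of reads, between 20 and 45 M, that brings the FPKM of short genes closest to whole reads of 75 bases. A larger depth in a whole ratio to it would also do so, so the depth itself rests on this range. All 40 genes had a transcript length for an estimate of reads, and 33 had at least 100 estimated reads in every library, which bounds the precision of the rest. Each estimate used the longest annotated transcript of the gene, so it can be too high where shorter transcripts were read. Counting error adds to this. Values were summarised in Python 3.11.15 with pandas 2.3.3, numpy 2.4.6 and matplotlib 3.10.9. Promoters came from RefSeq (GRCh38.p14).

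The 40 genes, the second list and the markers were chosen with earlier results of these data known. Named from the second list were the 8 genes with the smallest p in each direction among those called between the lines in Scr, and any with an unadjusted p under 0.05 with siPAI-1. Some genes are not reported here. As alternatives, the pseudocount was set to 1 or 0.01 TPM, FPKM took the place of TPM, libraries were rescaled by the median ratio, a mean of 1 TPM was required, all 8 libraries entered 1 fit, the replicate number was a block, the trend was dropped, each replicate was left out and, added later, both lines shared 1 model.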

Additional observations from a re-analysis of the deposited data

How the results depend on the processing

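Over 163 results and 2007 values under an alternative, 1787 were tallied as kept, 148 lost a call and 24 gained a call. A further 36 counts or medians moved and 12 values turned their direction. The value of a gene was kept where its direction and side of the threshold stayed. Medians were kept where they moved by less than the SD over pairs of libraries. Counts were kept within a set factor of the main count, so a kept count can still differ clearly from it. The turned values belong to genes without a call in that comparison. In Scr, RT112 minus UM-UC-3, P4HA2 was -0.00293 with FPKM and PGK1 0.026 with median ratio rescaling, and in siPAI-1 PFKFB3 was -0.00124 with FPKM. In Scr, without trend, HK2, PFKM, TPI1 and ARNT were not called, and ANKRD37 was called with a pseudocount of 1 TPM, a minimum mean of 1 TPM, 1 fit over all 8 libraries or a replicate block. EGLN1 was called with the last 3 of these and with FPKM, and CA9 with a minimum mean of 1 TPM or 1 fit. In siPAI-1, without trend, LDHB, TPI1, ARNT, PFKP, ALDOA and TFRC were not called, nor were ARNT with a replicate block, TPI1 with median ratio rescaling or a pseudocount of 0.01 TPM, and CA9 and SLC2A3 with 1 fit. HK2, PDK1 and PGK1 were called there with a minimum mean of 1 TPM or 1 fit. Of all genes, 1 was called lower with siPAI-1 in UM-UC-3 with a minimum mean of 1 TPM, 2 higher in RT112 with 1 fit over all 8 libraries, and 4 higher and 3 lower in the interaction without trend, where the main counts were 0. None of the 40 genes was called with siPAI-1 or in the interaction under any alternative run. The cause of these changes was not tested.

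With 1 replicate left out, the lone library of a group is assumed to vary like the others. In Scr, the 40 genes then had 6 to 10 calls higher in RT112 and 9 to 12 higher in UM-UC-3, and all genes 2975 to 3120 and 2655 to 3589, with medians of -0.48 to -0.31. In siPAI-1 these were 7 to 9 and 6 to 17, 2492 to 3904 and 2802 to 3238, and -0.51 to -0.38. Medians with siPAI-1 were -0.016 to 0.099 in UM-UC-3, -0.030 to 0.063 in RT112 and -0.12 to 0.038 for their difference. In the interaction, 0 to 101 genes of the whole table were called higher and 0 to 42 lower, with 101 and 22 without RT112 siPAI-1 replicate 2, 20 and 0 without RT112 siPAI-1 replicate 1, 2 and 42 without UM-UC-3 siPAI-1 replicate 1, and 0 and 1 without UM-UC-3 Scr replicate 2. Log2 fold changes in Scr ran from -0.016 to 0.20 for ALDOA, -0.0717 to 0.034 for PGK1, -0.23 to 0.11 for PFKFB3 and -0.048 to 0.0996 for P4HA2, and in siPAI-1 from -0.080 to 0.12 for PFKFB3.

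The correlations of replicate differences between groups were 0.0437, -0.0431, 0.0142 and -0.0364 over 12803 genes. No effect shared by libraries of the same replicate number was thus seen. Whether such libraries were made together is not given by the labels, and these correlations cannot show it. With a replicate block, 11 and 18 of the 40 genes were called higher in RT112 and in UM-UC-3 in Scr, 12 and 21 in siPAI-1, and 0 with siPAI-1 in either line. Over all genes the same fits called 4597 and 4790 in Scr and 4731 and 4634 in siPAI-1. Depth limits CA12, CA9, ANKRD37 and ENO2 in RT112, SLC2A3, and SLC16A3 and ALDOC in UM-UC-3, which rest on few reads.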
